A study of Saccharomyces cerevisiae with 7 samples.

Results

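Ribosomal protein genes without introns are the 36 genes described here, out of 137 cytosolic ribosomal protein genes and 6665 genes in the deposited gene tables. A gene was taken when its standard name is RPL, RPS or RPP with a number and an optional A or B and when the intron tables hold no row for it. By that rule 138 names matched, 1 of which, RPP1, encodes a subunit of ribonuclease P and was left out, and the other 101 have an intron row. Of the 36 genes, 24 encode proteins of the large subunit (20 RPL and 4 RPP names) and 12 of the small subunit. The rule uses names and intron rows rather than measured values, although the group was taken up with earlier results of these data known. All 36 passed the filter on low counts. The names fit the label by the rule itself, and the RefSeq table of the R64 build lists each gene as protein-coding, with spans of 78 to 1164 nt.

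The 7 RNA libraries came from the budding yeast Saccharomyces cerevisiae, all from the auxotrophic laboratory strain BY4741, and, by the labels, no library carries any other allele. Cells from overnight cultures were diluted to an OD600 of 0.2 and grown at 30 °C in synthetic complete (SC) medium or on SC plates. Log phase means harvest at an OD600 of 0.5 (2 libraries), and saturated means harvest once growth had saturated (2 libraries). For rapamycin, an inhibitor of the growth-signalling kinase complex TORC1, cells grown for 4 h were filtered into fresh medium with 100 nM of the drug and taken after 1 h (1 library) or 4 h (1 library), so the move to fresh medium and the drug cannot be told apart. The lawn was spread on SC plates and grown for 3 days (1 library). Whether the libraries of a pair are separate cultures is not stated, and the p-values therefore measure the spread between these samples alone, which may be technical.

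A ribosome is built from ribosomal RNA and a single molecule of each ribosomal protein, with several copies only of the acidic stalk proteins. In growing budding yeast the messengers of these proteins are among the most abundant and are made from promoters bound mostly by Rap1, Fhl1 and Ifh1, whose activity TORC1 and protein kinase A control through Sfp1, Sch9 and other factors. Many of the proteins are encoded by a pair of genes, copies A and B, left from an ancient genome duplication. Messengers of genes with introns must be spliced, whereas those of the 36 genes are not.

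Gene reads ran from 1019287 to 9438379 per library, and the counts of both pairs differed by more than sampling noise. Levels are given in TPM (transcript units corrected for gene length, with a fixed sum per library) and changes as log2 values from edgeR's quasi-likelihood test of 5827 genes, with Benjamini-Hochberg adjustment over all of them, a threshold of 0.05 and standard errors after ±. The standard errors were worked back from each log2 value and the F statistic of its test. Values for rapamycin and the lawn rest on a single library each, assumed to vary like the log-phase and saturated pairs. Both measures are relative to the other RNA of a library, and in bulk RNA fewer cells with a messenger and less of it per cell cannot be told apart. For 12 of the 36 genes there is no second copy by name, and 24 have one. Reads of 27 to 40 nt that match both copies of a pair may have been dropped or shared, since the sources used here do not say how they were counted, so levels of single copies are uncertain.

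In log phase the 36 genes spanned a wide range of levels. RPS31, which encodes ubiquitin fused to a small-subunit protein, was the highest with 8228 and 8059 TPM, and RPL15B the lowest with 52.3 and 68.4 TPM. After RPS31 came RPS12 (mean 6172 TPM ± 609.7, SD, n = 2), RPL10 (5671 ± 337), RPL41B (5456 ± 434) and RPL3 (5418 ± 352). The means of RPL10, RPL41B and RPL3 differed by less than their SDs. RPL4B (172 ± 13.1) and RPL4A (303 ± 19.2) were the next lowest after RPL15B. Genes without a second copy ran from 4318 to 8228 TPM in replicate 1 and from 2831 to 8059 in replicate 2. Genes with a second copy ran from 52.3 to 5763 and from 68.4 to 5149. Both copies together gave 4320.2 and 3970.3 TPM for RPL15, but 498 and 452 for RPL4 and 878 and 767 for RPL1. The sums for RPL4 and RPL1 lay far under the genes without a second copy. Such sums are uncertain too, since reads that match both copies may have been dropped, which was not tested.

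**Figure D1:**
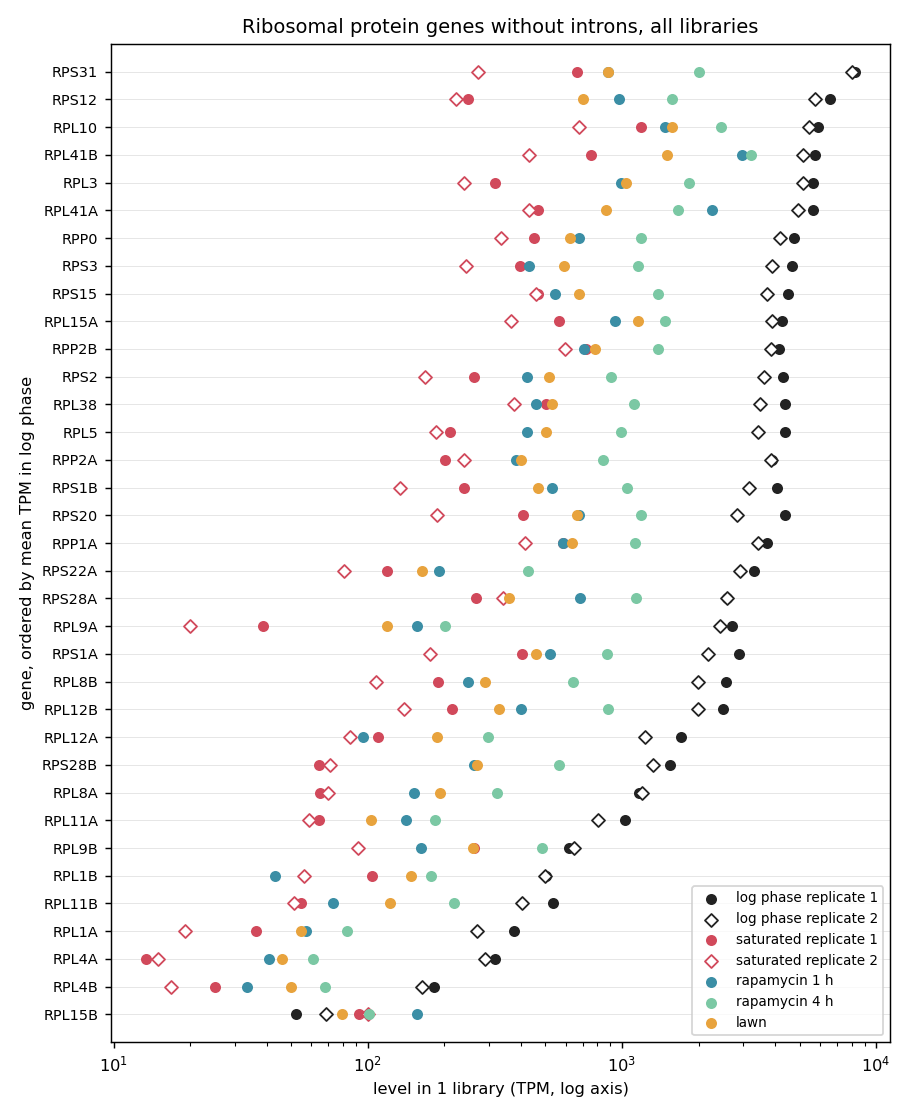
Level of 35 of the 36 genes in each of the 7 libraries, in TPM on a log axis, with genes ordered from RPS31 (top) to RPL15B (bottom) by their mean in log phase. For 34 of the genes drawn every other library lies left of both log-phase libraries (black), and RPL15B runs the other way.

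Saturated cultures held far less RNA of these genes than log phase. RNA fell for 35 of the 36 and rose for 1, RPL15B, with a median log2 change of −3.27 (edgeR). Over all genes tested, 25.1% fell and 27.9% rose, with a median of 0.10. The largest falls were those of RPL9A (−6.01 ± 0.44), RPS22A (−4.59 ± 0.37), RPS12 (−4.38 ± 0.37) and RPL4A (−4.09 ± 0.30). The smallest were those of RPL9B (−1.44 ± 0.45), RPL10 (−2.25 ± 0.41) and RPL1B (−2.26 ± 0.35). In TPM, both saturated libraries lay below both log-phase libraries for the same 35 genes, and replicate 1 was the higher of the saturated pair for 30 of the 36. The fall of 35 held under every other setting tried, whereas the rise of RPL15B did not.

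Rapamycin for 1 h was followed by a fall of similar size. At 1 h, 35 genes fell and 0 rose, with a median of −3.24, while 11.5% of all genes fell and 9.18% rose (median 0.04). At an unadjusted p under 0.05 a single gene rose, again RPL15B. RPL9A (−4.58 ± 0.55), RPS22A (−4.57 ± 0.50), RPL12A (−4.49 ± 0.48) and RPL1B (−4.08 ± 0.50) fell most. RPL41B (−1.43 ± 0.42), RPL41A (−1.77 ± 0.35) and RPS28A (−2.46 ± 0.37) fell least, and the call for RPL41B was lost without log-phase replicate 1 (−1.33, edgeR, adjusted p = 0.126) and with plain library totals (−1.14, adjusted p = 0.0754).

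At 4 h of rapamycin, 35 of the 36 genes had a lower TPM than in both log-phase libraries, the exception being RPL15B. Of the 36 genes 33 fell and 0 rose against log phase (1 gene, RPL15B, had a positive value), with a median of −2.26. Among all genes 11.5% fell and 14.8% rose (median 0.06). RPL9A (−4.20 ± 0.54), RPS22A (−3.40 ± 0.47), RPL11A (−2.85 ± 0.39) and RPL4A (−2.84 ± 0.35) had the largest falls. The genes that did not pass were RPL41B (−1.29 ± 0.42, edgeR, adjusted p = 0.0509), RPL9B (−0.90 ± 0.55, adjusted p = 0.258) and RPL15B (0.23 ± 0.32, adjusted p = 0.628). RPL41B and RPL9B passed once either saturated library was left out, and also with a term for replicate number. RPL41B further passed with RLE scaling, with TMM scaling that left out ribosomal protein genes, without the filter and with DESeq2. With plain library totals neither RPL41B nor RPL9B passed, and the calls for RPL10 (−1.42) and RPS1A (−1.73) were lost. Without log-phase replicate 1 the count was 28, with RPL3, RPL10, RPL11B, RPL12B and RPS1A no longer called, and RPL10 was also lost without log-phase replicate 2 (−1.87, edgeR, adjusted p = 0.055).

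Set directly against 1 h, 34 of the 36 genes had a higher TPM at 4 h, the others being RPL15B and RPL41A. The median log2 difference was 0.99, beside 0.13 for all genes. Only RPL1B (2.05 ± 0.48, edgeR, adjusted p = 0.0403) and RPL11B (1.60 ± 0.39, adjusted p = 0.0448) passed the test, where 5.29% of all genes were higher and 0.978% lower, and 16 genes had an unadjusted p under 0.05, each with the higher value at 4 h. The count depends on the libraries that set the spread. It was 1 without log-phase replicate 1 or log-phase replicate 2, 11 without saturated replicate 1 and 10 without saturated replicate 2. RPL11B was the call lost without either log-phase library, and DESeq2 did not call it.

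The lawn, too, held less RNA of these genes than log phase. Against log phase 35 fell and 0 rose, with a median of −3.20, while 20.9% of all genes fell and 20.7% rose (median 0.04). RPL9A (−4.98 ± 0.57), RPS22A (−4.78 ± 0.51), RPP2A (−3.81 ± 0.43) and RPS31 (−3.75 ± 0.68) fell most. RPL9B (−1.82 ± 0.59), RPL1B (−2.29 ± 0.46) and RPL4B (−2.33 ± 0.40) fell least. The call for RPL9B was lost with plain library totals (−1.39). RPL15B did not pass (−0.13 ± 0.35, edgeR, adjusted p = 0.784). Between the lawn and saturated cultures no gene of the 36 passed, where 7.14% of all genes were lower and 5.05% higher in the lawn. DESeq2 also called 0, and 4 genes had an unadjusted p under 0.05 in the edgeR test. By TPM, 34 of the 36 genes were higher in the lawn than in both saturated libraries, RPL15B and RPL9B being the exceptions. The log2 differences ran from −1.15 for RPL15B to 1.14 for RPS28B with a median of 0.02, and their standard errors were 0.36 and 0.35. Leaving out saturated replicate 1 gave 3 calls, leaving out saturated replicate 2 gave 2, and plain library totals gave 6. The median depends on the scaling and the library. It was 0.76 with plain totals, where that of all genes was 0.69, and 0.54 without saturated replicate 1.

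**Figure D2:**
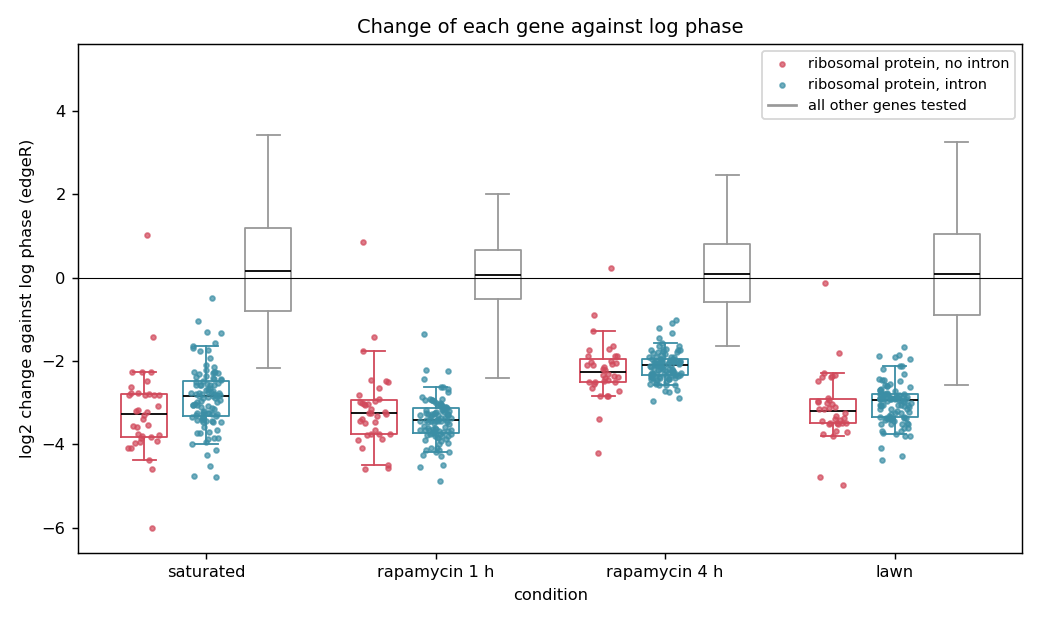
Log2 change of each gene against log phase (edgeR) in saturated cultures, with rapamycin for 1 h or 4 h and on the lawn, for ribosomal protein genes without introns (red), with introns (blue) and all other genes tested (grey). Boxes span the quartiles with the median in black, whiskers the 5th to 95th percentile, and dots are single genes; the lone red dot above 0 in 3 of the conditions is RPL15B and the lowest red dot in saturated cultures is RPL9A.

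Ribosomal protein genes with introns, the nearest group for comparison, fell about as far. In saturated cultures 100 of 101 fell and 0 rose, with a median of −2.85 and values from −4.78 to −0.48, against −3.27 and −6.01 to 1.02 for those without. At 1 h of rapamycin the medians were −3.43 with introns and −3.24 without, at 4 h −2.11 and −2.26, and on the lawn −2.95 and −3.20. Which group had the larger median fall thus changed with the condition. These are descriptions, since genes are not replicates. Large-subunit and small-subunit genes without introns had medians of −3.13 and −3.77 in saturated cultures, −3.20 and −3.35 at 1 h, −2.20 and −2.37 at 4 h, and −3.12 and −3.44 on the lawn.

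The 36 genes together took 12.4% and 10.7% of all gene TPM for the log-phase pair, 1.20% and 0.839% for the saturated pair, 2.10% with rapamycin for 1 h, 3.65% for 4 h, and 1.97% in the lawn. The group means were 11.5% ± 1.20 in log phase and 1.02% ± 0.258 in saturated cultures (SD, n = 2 each). Both saturated libraries lay far below both log-phase ones, and a permutation test of 2 libraries against 2 cannot go below p = 0.33, so none is given. As a share of gene reads, which is not corrected for length, the single libraries gave 0.812% at 1 h (95% Wilson interval 0.806 to 0.818), 1.60% at 4 h (1.59 to 1.61) and 0.916% in the lawn (0.9 to 0.933), intervals that cover counting error only. Within the TPM of all ribosomal protein genes, those without introns held 35.5% and 35.2% for the log-phase pair, 28.9% and 30.2% for the saturated pair, 40.8% at 1 h, 34.0% at 4 h, and 32.98% in the lawn. That share was highest at 1 h of rapamycin and lowest in the saturated pair. RPL41A and RPL41B, which fell least at 1 h, were then the highest of the 36 by TPM, with 2268 and 2954. Both count in the 40.8%, and the share without them was not computed.

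**Figure D3:**
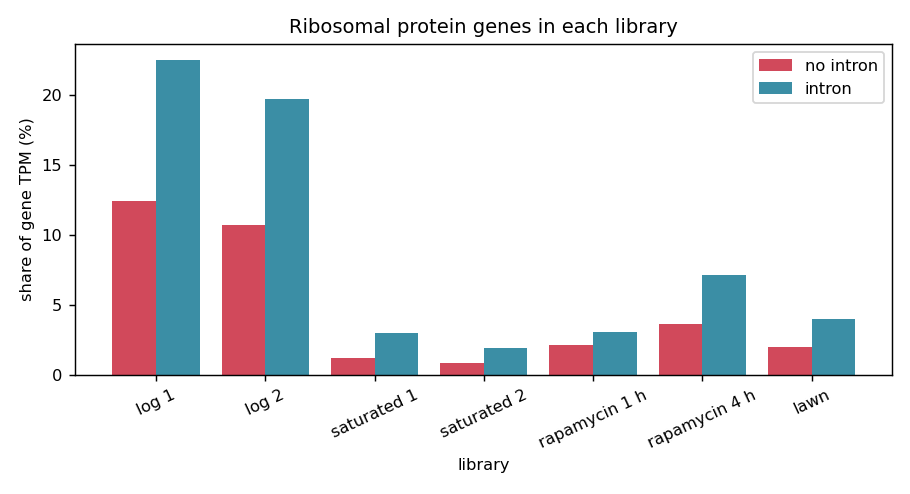
Share of all gene TPM taken in each library by the 36 ribosomal protein genes without introns (red) and the 101 with introns (blue), in percent. The red bars go from 12.4% and 10.7% in log phase to 1.20% and 0.839% in saturated cultures, with the 4 h rapamycin library between them.

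By role, the proteins around the catalytic centre and exit tunnel of the large subunit come first. RPL3, which shapes the peptidyl transferase centre, had 5667 and 5169 TPM for the log-phase pair, 317 and 238 for the saturated pair, 994 with rapamycin for 1 h, 1832 for 4 h, and 1034 on the lawn. RPL10, which joins the subunit last in the cytoplasm, had 5909 and 5432 TPM for the log-phase pair, 1190.0 and 680.2 for the saturated pair, 1483 with rapamycin for 1 h, 2442 for 4 h, and 1569 on the lawn. RPL10 had the smaller fall in saturated cultures (log2 −2.25 against −3.95, a difference that was not tested) and was the highest of the 36 by TPM in both saturated libraries and in the lawn. RPL4A and RPL4B, copies for a protein that lines the exit tunnel, had 316 and 289 against 182 and 163 TPM in log phase, but 13.4 and 15.0 against 25.1 and 16.8 in saturated cultures. RPL4A was the higher copy in both log-phase libraries and not in either saturated one, and it rested there on 74 and 17 reads.

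RPL5 and RPL11 bind the 5S ribosomal RNA and enter the large subunit with it. RPL5 had 4398 and 3414 TPM for the log-phase pair, 211 and 186 for the saturated pair, 423 with rapamycin for 1 h, 994 for 4 h, and 503 on the lawn. Its log2 changes were −3.96 when saturated, −3.75 after 1 h, −2.50 after 4 h and −3.50 on the lawn. RPL11A had 1029 and 802 TPM for the log-phase pair, 64.4 and 58.6 for the saturated pair, 141 with rapamycin for 1 h, 184 for 4 h, and 103 on the lawn, and RPL11B had 538 and 403 TPM for the log-phase pair, 54.6 and 51.3 for the saturated pair, 72.8 with rapamycin for 1 h, 219 for 4 h, and 123 on the lawn. RPL11A was the higher copy in log phase and at 1 h, whereas RPL11B was the higher one at 4 h. In the saturated pair RPL11A had 171 and 32 reads against 145 and 28 for RPL11B, and on the lawn 68 against 81. The RPL11A share of reads there was 54.1% (Wilson interval 48.6 to 59.5), 53.3% (40.9 to 65.4) and 45.6% (37.8 to 53.6). Each interval includes equal shares, so counting error alone leaves the higher copy undecided in these libraries.

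The ribosomal stalk recruits translation factors through its acidic proteins P1 and P2, which sit on P0 beside L12. RPP0, which encodes the P0 base, had 4757 and 4189 TPM for the log-phase pair, 449.8 and 333 for the saturated pair, 679 with rapamycin for 1 h, 1184 for 4 h, and 624 on the lawn, and its log2 changes were −3.17 when saturated, −3.26 after 1 h, −2.45 after 4 h and −3.38 on the lawn. RPP1A, an acidic P1 protein, had 3735 and 3434 TPM for the log-phase pair, 586 and 417 for the saturated pair, 584 with rapamycin for 1 h, 1126 for 4 h, and 637 on the lawn. Its partner RPP1B has an intron row and is not among the 36. For the P2 proteins, RPP2A had 3895 and 3840.1 TPM for the log-phase pair, 201 and 239.7 for the saturated pair, 381 with rapamycin for 1 h, 845 for 4 h, and 401 on the lawn, and RPP2B had 4154 and 3849.6 TPM for the log-phase pair, 719 and 595 for the saturated pair, 707 with rapamycin for 1 h, 1389 for 4 h, and 783 on the lawn. Both were alike in log phase, and RPP2A was below RPP2B in all 5 other libraries, with log2 changes of −3.81 when saturated, −3.89 after 1 h, −2.72 after 4 h and −3.81 on the lawn against −2.27 when saturated, −3.04 after 1 h, −2.05 after 4 h and −2.89 on the lawn. RPL12A and RPL12B fell in every condition, with log2 changes of −4.49 and −3.03 at 1 h of rapamycin and −3.56 and −3.31 when saturated. RPL1 is the protein of the mobile L1 stalk. RPL1A had 376 and 268 TPM for the log-phase pair, 36.3 and 19.1 for the saturated pair, 56.9 with rapamycin for 1 h, 82.7 for 4 h, and 54.7 on the lawn, and RPL1B had 502 and 499 TPM for the log-phase pair, 103 and 55.9 for the saturated pair, 43.1 with rapamycin for 1 h, 177 for 4 h, and 148 on the lawn. RPL1B was the higher copy in every library except that of 1 h of rapamycin, where it stood at 43.1 TPM against 56.9.

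Among other large-subunit genes, RPL38 and the copies RPL8A and RPL8B, which encode structural proteins of the large subunit, had log2 changes of −2.81 when saturated, −3.65 after 1 h, −2.35 after 4 h and −3.43 on the lawn for RPL38, of −3.80 when saturated, −3.49 after 1 h, −2.39 after 4 h and −3.15 on the lawn for RPL8A and of −3.58 when saturated, −3.75 after 1 h, −2.36 after 4 h and −3.52 on the lawn for RPL8B. RPL41A and RPL41B encode the smallest ribosomal protein, which bridges the subunits, and their spans of 78 nt leave few places for a read. RPL41A had 5650.0 and 4932 TPM for the log-phase pair, 467 and 432 for the saturated pair, 2268 with rapamycin for 1 h, 1655 for 4 h, and 867 on the lawn, and RPL41B had 5763 and 5149 TPM for the log-phase pair, 756 and 432 for the saturated pair, 2954 with rapamycin for 1 h, 3226 for 4 h, and 1509 on the lawn. The copies were close in log phase, and RPL41B was the higher one in the rapamycin and lawn libraries.

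Among small-subunit genes, RPS31 had 8228 and 8059 TPM for the log-phase pair, 665 and 272 for the saturated pair, 879.7 with rapamycin for 1 h, 2008 for 4 h, and 878 on the lawn. RPS12, a protein of the beak of the subunit, had 6604 and 5741 TPM for the log-phase pair, 247 and 223 for the saturated pair, 970.1 with rapamycin for 1 h, 1576 for 4 h, and 703 on the lawn. Both saturated libraries lay below all the others for both genes, and the log2 changes of RPS12 were −4.38 when saturated, −3.21 after 1 h, −2.50 after 4 h and −3.67 on the lawn. RPS2 and RPS3, which line the entry of the messenger channel, had log2 changes of −3.86 and −3.40 in saturated cultures, −3.78 and −3.87 at 1 h, −2.66 and −2.42 at 4 h and −3.48 and −3.40 on the lawn. RPS15 and RPS20, in the head of the subunit, had −2.82 and −3.23 in saturated cultures and −3.14 and −2.98 in the lawn. All 12 small-subunit genes fell in each of the 4 comparisons with log phase. Values ran from −4.59 to −2.77 in saturated cultures and from −3.40 to −1.72 at 4 h. The 4 h call for RPS1A was lost without log-phase replicate 1 (−1.83) and with plain library totals (−1.73). RPS22A fell most of the 12 in each comparison. It had 3304 and 2915 TPM for the log-phase pair, 119 and 80.8 for the saturated pair, 190.1 with rapamycin for 1 h, 426 for 4 h, and 164 on the lawn, and its log2 changes were −4.59 when saturated, −4.57 after 1 h, −3.40 after 4 h and −4.78 on the lawn.

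The balance between copies A and B was tested as the change of their read ratio, in one edgeR fit of all 59 pairs of ribosomal protein genes with terms for library, copy and copy by group. Of these pairs, 11 have no intron in either copy and 2 (RPP1 and RPS22) have one in copy B only. RPL9A (R64 build, chromosome VII, 227754 to 228329) and RPL9B (chromosome XIV, 499681 to 500256) encode near-identical large-subunit proteins. RPL9A had 2717 and 2428 TPM for the log-phase pair, 38.8 and 20.0 for the saturated pair, 156 with rapamycin for 1 h, 201 for 4 h, and 119 on the lawn. RPL9B had 617 and 646 TPM for the log-phase pair, 263 and 91.8 for the saturated pair, 162 with rapamycin for 1 h, 487 for 4 h, and 259.6 on the lawn. RPL9A was thus several times higher than RPL9B in log phase, level with it at 1 h and lower in the other 4 libraries. The share of reads from RPL9A was 81.5% and 79.0% for the log-phase pair, 12.9% and 17.9% for the saturated pair, 49.1% with rapamycin for 1 h, 29.3% for 4 h, and 31.4% on the lawn. The log2 ratio of RPL9A to RPL9B changed by −4.72 ± 0.23 in saturated cultures (edgeR, adjusted p = 6.48e-07), −2.09 ± 0.21 at 1 h (6.93e-05), −3.30 ± 0.21 at 4 h (5.79e-06) and −3.16 ± 0.28 in the lawn (0.000103). RPL9A rested on 113 and 12 reads in the saturated libraries.

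RPL15A (chromosome XII, 201976 to 202590) and RPL15B (chromosome XIII, 509734 to 510348) encode another large-subunit protein. RPL15A had 4268 and 3902 TPM for the log-phase pair, 565 and 364 for the saturated pair, 942 with rapamycin for 1 h, 1480.2 for 4 h, and 1154 on the lawn. RPL15B had 52.3 and 68.4 TPM for the log-phase pair, 92.3 and 100.1 for the saturated pair, 156 with rapamycin for 1 h, 101 for 4 h, and 78.9 on the lawn. RPL15B was lowest in the log-phase libraries and highest at 1 h of rapamycin, and both saturated libraries were above both log-phase ones. It rose in saturated cultures (1.02 ± 0.27, edgeR, adjusted p = 0.0127), a call that was lost without log-phase replicate 1 (0.84, adjusted p = 0.184), without log-phase replicate 2 (1.10, adjusted p = 0.0602) and with plain library totals (0.71, adjusted p = 0.0568). At 1 h it stood at 0.84 ± 0.31 (edgeR, adjusted p = 0.0888) and passed without saturated replicate 1 (0.83, adjusted p = 0.00855) or saturated replicate 2 (0.83, adjusted p = 0.0107) and with plain library totals (1.13, adjusted p = 0.0306). The share of reads from RPL15A was 98.8% and 98.3% for the log-phase pair, 85.9% and 78.5% for the saturated pair, 85.8% with rapamycin for 1 h, 93.6% for 4 h, and 93.6% on the lawn. The ratio of A to B changed by −3.77 ± 0.30 in saturated cultures (edgeR, adjusted p = 1.39e-05), −3.56 ± 0.30 at 1 h (4.01e-05), −2.28 ± 0.31 at 4 h (0.000696) and −2.29 ± 0.44 in the lawn (0.00647). RPL15B had only 222 and 82 reads in log phase, beside 18124 and 4678 for RPL15A, and the part of reads that match both copies in this result was not tested.

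**Figure D4:**
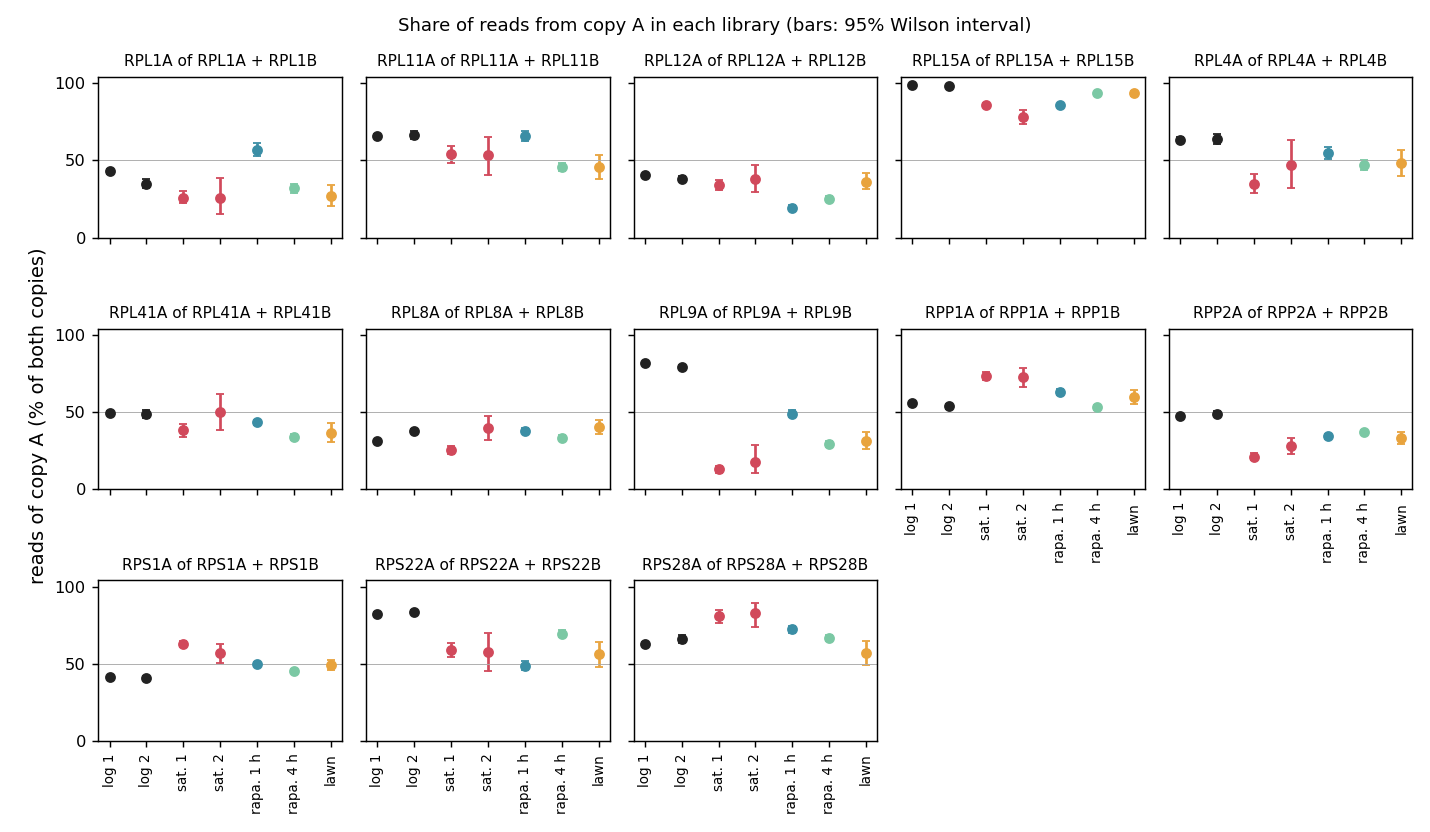
Reads of copy A as a percentage of reads of both copies, for the 13 pairs with at least 1 copy without an intron, in each of the 7 libraries, with 95% Wilson intervals that cover counting error only. RPL9 goes from 81.5% and 79.0% in log phase to 12.9% and 17.9% in saturated cultures, while RPL8 stays between 25.4% and 40.0%.

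In saturated cultures the ratio of A to B changed for 10 of the 13 pairs, falling for 7 and rising for 3, where 39.0% of all 59 pairs fell and 15.3% rose. At 1 h of rapamycin it fell for 5 and rose for 2 (20.3% and 25.4% of all pairs), at 4 h it fell for 8 and rose for 0 (20.3% and 10.2%), and in the lawn it fell for 6 and rose for 0 (20.3% and 8.47%). These counts moved with single libraries, to 4 at 1 h and 4 at 4 h without log-phase replicate 2, 5 at 4 h without log-phase replicate 1, and 10 at 1 h without either saturated library. RPL9, RPL15, RPP2 and RPS22 passed in all 4 comparisons and RPL8 in none. For RPS22, whose copy B has introns, the share of RPS22A was 82.5% and 83.7% for the log-phase pair, 59.0% and 57.9% for the saturated pair, 48.8% with rapamycin for 1 h, 69.5% for 4 h, and 56.2% on the lawn, and the ratio changed by −1.78 ± 0.20, −2.36 ± 0.18, −1.10 ± 0.18 and −1.93 ± 0.29 in the order of saturated cultures, 1 h, 4 h and lawn. Its call at 4 h was lost without log-phase replicate 2 (−1.05, edgeR, adjusted p = 0.0719). RPP2 changed by −1.62 ± 0.21 in saturated cultures, and its calls in the other 3 conditions were lost without log-phase replicate 1 or log-phase replicate 2. The ratios that rose in saturated cultures were those of RPP1 (1.18 ± 0.18), RPS1 (1.16 ± 0.20) and RPS28 (1.26 ± 0.22), where RPS28B rested on 66 and 15 saturated reads. RPS1 and RPS28 encode proteins near the messenger exit. RPS1B fell more than RPS1A (−3.92 against −2.77) and RPS28B more than RPS28A (−4.09 against −2.78). The call for RPS1 was lost without log-phase replicate 1 (adjusted p = 0.195, edgeR) and without log-phase replicate 2 (0.277), and that for RPP1 without log-phase replicate 2 (0.0531). The falls of RPL1 and RPL11 in saturated cultures were lost in 2 or 3 of the fits that left out a library, namely when log-phase replicate 1 or saturated replicate 1 was dropped, and RPL11 also without log-phase replicate 2. The fall of RPL4 was lost without saturated replicate 1 (−0.97, adjusted p = 0.0948, edgeR).

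Between the rapamycin times the ratio of A to B passed for 5 of the 13 pairs, in a comparison added after seeing the data, where 27.1% of all 59 pairs had a lower ratio and 8.47% a higher one. The A to B ratio was lower at 4 h than at 1 h for RPL1 (−1.50 ± 0.28, edgeR, adjusted p = 0.00452), RPL11 (−1.21 ± 0.20, adjusted p = 0.00381) and RPL9 (−1.22 ± 0.24, adjusted p = 0.00562). It was higher for RPL15 (1.28 ± 0.33, adjusted p = 0.0161) and RPS22 (1.26 ± 0.21, adjusted p = 0.00381). For RPL1, copy A took 56.9% of the reads at 1 h (95% Wilson interval 52.7 to 61.1) and 31.9% at 4 h (29.1 to 34.8). Without log-phase replicate 1 or log-phase replicate 2 the calls for RPL9 and RPL15 were lost and 3 pairs were left, and without saturated replicate 1 or saturated replicate 2 there were 10. By limma the same RPL9 and RPL15 calls were lost (adjusted p = 0.0869 and 0.123).

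Genes that regulate ribosomal protein transcription were listed with earlier results of these data known. Of the 14, 5 rose and 0 fell in saturated cultures (median 0.06), where 27.9% of all genes rose and 25.1% fell, so the count is near the general share. CRF1, which encodes a corepressor that takes the place of Ifh1, rose by 4.60 ± 0.35 when saturated, 1.33 ± 0.38 with rapamycin for 1 h, 2.43 ± 0.37 for 4 h, and 5.59 ± 0.37 in the lawn. The rise at 1 h was lost without log-phase replicate 1 (0.97) or log-phase replicate 2 (1.51), and with DESeq2 (1.34). DOT6 (3.11 ± 0.36) and STB3 (1.42 ± 0.26), repressors of ribosome biogenesis genes, ESA1 (1.60 ± 0.26), the acetyltransferase of the NuA4 complex, and SFP1 (0.85 ± 0.28) also rose in saturated cultures. The call for SFP1 was lost without log-phase replicate 1 (0.90), log-phase replicate 2 (0.73) or saturated replicate 1 (0.48) and with plain library totals (0.55). At 1 h, TOD6, a paralogue of DOT6, fell (−4.01 ± 0.43) and was the 1 gene of the list that fell. CRF1 was the 1 that rose, where 11.5% of all genes fell and 9.18% rose. RAP1 and IFH1 did not pass, with −0.46 and 0.70 in saturated cultures and −0.81 and −1.08 at 1 h. Leaving out saturated replicate 1 or saturated replicate 2 called both as falling at 1 h (edgeR, adjusted p = 0.0212 and 0.0193 for RAP1, 0.00212 and 0.00246 for IFH1). RAP1 was also called as falling in saturated cultures without saturated replicate 2 (−0.87) and with plain library totals (−0.77), and at 4 h and in the lawn without either saturated library (−0.77 and −0.77, then −1.08 and −1.09). IFH1 was called as rising in saturated cultures without saturated replicate 2 (0.69). At 4 h 1 gene of the list rose and 0 fell, where 14.8% of all genes rose and 11.5% fell. In the lawn 4 rose and 0 fell, where 20.7% of all genes rose and 20.9% fell. Without log-phase replicate 1 the lawn count was 1 and without log-phase replicate 2 it was 2.

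Genes for chaperones and importers of ribosomal proteins, a list drawn up in the same way, mostly fell. Of the 17, 14 fell and 1 rose in saturated cultures (median −1.88), and 15 fell with rapamycin for 1 h, 10 for 4 h, and 16 on the lawn, where 0 rose. Of all genes 25.1%, 11.5%, 11.5% and 20.9% fell in these comparisons. RRB1, the chaperone of Rpl3, fell in all 4, with −3.67 ± 0.30, −4.30 ± 0.40, −1.79 ± 0.34 and −3.13 ± 0.39 in the order of saturated cultures, 1 h, 4 h and lawn. SYO1, which imports Rpl5 with Rpl11, fell at 1 h (−4.49 ± 0.51), in saturated cultures (−1.44 ± 0.35) and in the lawn (−1.76 ± 0.46). At 4 h it stood at −0.78 ± 0.40 (edgeR, adjusted p = 0.184). Its saturated and lawn calls were lost without log-phase replicate 1. SQT1, the chaperone of Rpl10, fell in saturated cultures (−1.08 ± 0.31), at 1 h (−1.85 ± 0.39) and in the lawn (−2.27 ± 0.43). ACL4, that of Rpl4, fell in all 4 (−1.88 ± 0.28, −2.86 ± 0.36, −1.37 ± 0.32 and −1.08 ± 0.34, in the order given for RRB1). Its call at 4 h was lost without log-phase replicate 1. Its call in the lawn was lost without either log-phase library, with plain library totals and with DESeq2. The saturated call for SQT1 was lost without log-phase replicate 1 (edgeR, adjusted p = 0.0839). YAR1, the chaperone of Rps3, was the gene that rose (0.96 ± 0.28), but without log-phase replicate 2 it stood at 0.63 (edgeR, adjusted p = 0.276), and with plain library totals at 0.66 (adjusted p = 0.0725). The 4 h count was 6 without log-phase replicate 1.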

How the data were processed

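RNA of genes was measured in 7 libraries of total RNA depleted of ribosomal RNA and broken into fragments of 27 to 40 nt, per the labels' protocols. Per the submitters' processing notes, cutadapt 1.8, STAR 2.4 and the R64 (sacCer3) build were used. How reads were counted, against which annotation and with or without strand is not given in the sources used here. The authors deposited, per the file headers, read counts and TPM for 6665 genes and 300 introns in each library. The deposited TPM of genes and introns sums to 1000000 per library. Names came by locus tag from the RefSeq table of R64 for 5989 genes, while 676 did not match and could overlap the 36 genes unseen; no gene of the table does.

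Tests on the counts ran in R 4.3.3 with edgeR 4.0.16 (quasi-likelihood, TMM scaling, the edgeR filter on low counts, Benjamini-Hochberg adjustment over 5827 genes, threshold 0.05, two-sided), in 1 fit of 7 libraries in 5 groups with 2 residual degrees of freedom. Copy ratios used the 59 pairs with at least 10 reads in each copy. Alternatives were DESeq2 1.42.0, limma 3.58.1, other scalings, no filter, a replicate block and leaving out each library of a pair. Steps were tested on simulated data. Members and lists were chosen with earlier results of these data known. Named genes were the 4 largest and 4 smallest changes per comparison, the highest and lowest levels, genes that did not pass, and a fixed list by role. The planned search for promoter motifs was not run, as it needs sequence not given here. Values of 1 of the 36 genes are not reported singly here, though it is part of the counts and medians.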

Additional observations from a re-analysis of the deposited data

Results flagged for a closer look

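Between the rapamycin times, with 1 library each, 2 of the 36 genes passed a direct test, a count near the share of all genes (5.29%). RPL1B was higher at 4 h than at 1 h by a log2 value of 2.05 and RPL11B by 1.60. The RPL11B call was lost without log-phase replicate 1 or log-phase replicate 2, and with DESeq2. Among the listed genes TOD6 (3.95), SYO1 (3.71), RRB1 (2.50), KAP123 (2.12) and ACL4 (1.48) were likewise higher at 4 h, where 5.29% of all genes were. The ACL4 call was lost without log-phase replicate 1 (edgeR, adjusted p = 0.111), without log-phase replicate 2 (0.112), with RLE scaling (0.0507) and with DESeq2 (0.156). The A to B copy ratio differed by −1.50 for RPL1, −1.21 for RPL11, −1.22 for RPL9, 1.28 for RPL15 and 1.26 for RPS22. These were 5 of the 13 pairs, where 27.1% of all 59 pairs had a lower ratio and 8.47% a higher one. By limma the ratios of RPL9 and RPL15 did not pass. Between the lawn and saturated cultures, 3 listed genes were lower in the lawn, YAR1 (−2.39), DOT6 (−2.25) and ZUO1 (−1.65), and 0 of the 36 ribosomal protein genes passed, where 7.14% of all genes were lower. With plain library totals ZUO1 stood at −0.92 and did not pass (edgeR, adjusted p = 0.0851).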

How the results depend on the processing

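With 7 libraries and 2 residual degrees of freedom, calls near the threshold depend on which library is left out; low counts limit RPL9A, RPL1A, RPL4A and RPS28B in saturated cultures. The falls against log phase kept their count within 1.5 times under all alternatives run. Replicate numbers are shared by the log-phase and saturated pairs, but nothing says that they mark a batch; deviations correlated with r = 0.199 over 5541 genes. With the replicate block, 13 of the 36 genes passed between 4 h and 1 h of rapamycin, 3 regulators at 4 h, and of the copy ratios 4 at 1 h, 2 at 4 h, 0 in the lawn and 0 between rapamycin times. Plain totals shifted the median of all genes to −0.21 in saturated cultures, 0.32 at 1 h, 0.39 at 4 h and 0.47 in the lawn; they gave 6 of the 36 genes between lawn and saturated cultures, 4 regulators at 4 h, and RPL15B at 0.29 in the lawn. Regulators at 4 h numbered 2 with RLE scaling, TMM without ribosomal protein genes, no filter or DESeq2, and at 1 h 1 with DESeq2. By limma, 4 copy ratios passed at 4 h and 3 between rapamycin times. As shares of reads, the 36 genes held 6.18% in log phase, 0.504% in saturated cultures, 0.812% at 1 h, 1.60% at 4 h and 0.916% in the lawn.

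Leaving out 1 library gave 1 to 11 of the 36 genes between rapamycin times and 0 to 3 between lawn and saturated cultures. Regulators ranged from 1 to 4 at 1 h, 1 to 4 at 4 h and 1 to 7 in the lawn, and chaperones from 6 to 15 at 4 h. Copy ratios ranged from 4 to 10 at 1 h, 4 to 10 at 4 h and 3 to 10 between rapamycin times. Signs reversed only for values that had not passed. Among genes these were RPL15B in the lawn (−0.13, but 0.29 with plain totals) and IFH1 in the lawn (−0.0082 to 0.24). Among copy ratios they were RPL11 at 1 h (−0.042 to 0.015) and RPL41 in saturated cultures (−0.65 to 0.044). The ratio of RPL8 reversed in saturated cultures (−0.60 to 0.33) and at 4 h (−0.25 to 0.15, and 0.22 with the replicate block). The cause was not tested.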
